A study of Mus musculus with 10 samples.

Results

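The genes described are 581 weakly counted protein-coding genes that lay on the same strand as a more strongly expressed gene and past its 3′ end. A member had a mean below 2 CPM (counts scaled to library size) over the 10 libraries and a total count of at least 50, and overlapped no gene of 10 CPM or more. Its nearest gene of 10 CPM or more, called the neighbour here, had to lie within 20 kb on the same strand, with the member beyond the neighbour's 3′ end. Dpys, Mroh6 and the olfactory receptor genes were left out. The 581 members came from 5910 low coding genes and from 55401 genes in the table, which held 8495 genes of 10 CPM or more. They fell into bins of 73 members at 0-1 kb, 163 at 1-5 kb and 345 at 5-20 kb. Mean level, total count and position chose the members, and the difference between the temperatures was not itself part of the rule. The total of 50 summed both temperatures, so it could be reached through either of them alone. Kctd11 had 43 counts at 33 °C and 498 at 42 °C, and Prdm14 had 17 and 127, so both reached it only with counts at 42 °C. Adprhl2 reached it at 33 °C alone (152 counts). Gm48552, lower at 42 °C, had 102 counts at 33 °C and 46 at 42 °C.

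Adult males of the outbred CD1 stock were anesthetised with isoflurane while their testes were in contact with water at 33 °C (5 mice) or 42 °C (5 mice) for 30 minutes. The mice were killed directly after waking, round spermatids were isolated, and ribosome-depleted total RNA was sequenced as stranded paired-end libraries. The question for these genes was whether counts past the ends of expressed genes differed between 42 °C and 33 °C, and how this varied with distance. The round spermatid is the haploid germ cell that follows meiosis.

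RNA polymerase II transcribes past the end of a gene until the nascent RNA is cleaved at a polyadenylation signal, most often AATAAA or ATTAAA, and the polymerase is then released. Where release is late, transcription runs on into the next gene, and such downstream-of-gene transcripts are known from cells under heat and other stresses. In counts per gene, RNA that began at a member's own promoter and RNA that ran in from the gene before it cannot be told apart, and that origin was not tested.

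For 7 neighbours, 30 bases around the poly(A) hexamer near the annotated transcript end are shown, because they lie before the 3 called members and the other 4 named members within 1 kb. They were taken from GENCODE M21 transcripts (GRCm38), and capitals mark AATAAA or ATTAAA, whose first base lay 16 to 47 bases from the transcript end. In Cdc34 an overlapping AATAAA just before the capitals is left in lower case. The members past these ends were, in order, Kctd11, Adprhl2, Prdm14, Avil, Vwa7, Gzmm and Efna4.
Acap1: attgaagtctccATTAAAgtctctcagctt
Tekt2: ggacagtaaaatAATAAAaatggagttctc
Ncoa2: actgcatcatttAATAAAttttaatgcctt
Ctdsp2: attacaattgttAATAAAggctggtttaaa
Vars: acagggatggcagcAATAAAatattttccc
Cdc34: tgtgtgaaataaAATAAAatagctttctga
Adam15: tgttttaaacaaAATAAAgtacaacatagg

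The hexamer was ATTAAA for Acap1 and AATAAA for the other neighbours shown. Of the neighbours of the 18 members named by rule, 14 held a hexamer in their last 50 bases. Gm39566, Stpg3, Ms4a5 and Atl3, which lie before Tmem102, Tor4a, Ms4a1 and Plaat3, had neither in this window. One of these hexamers was found in the last 50 bases of 76.9% of 7664 coding genes of 10 CPM or more. The share was 80.0% of 551 coding neighbours of members, with 86.3%, 83.6% and 76.9% in the bins from near to far. Neighbours of the 44 members whose libraries did not overlap between the temperatures, described further on, held it in 31 of 44 (70.5%). A match is a description of letters, and no use of these sites was measured.

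The 250 bases before the RefSeq start of Adprhl2 are shown because this whole stretch lay between the end of Tekt2 and Adprhl2. They run over chr4:126321704-126321953 on the minus strand (RefSeq, GRCm38.p6).
Adprhl2: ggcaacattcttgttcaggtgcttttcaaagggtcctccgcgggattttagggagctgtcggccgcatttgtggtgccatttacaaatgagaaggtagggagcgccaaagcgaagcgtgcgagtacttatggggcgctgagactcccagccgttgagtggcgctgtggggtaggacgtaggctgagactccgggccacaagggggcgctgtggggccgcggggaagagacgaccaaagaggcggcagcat

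This stretch held no inverted heat shock repeat, searched as GAANNTTC or TTCNNGAA, so no base is in capitals. Each pattern is its own reverse complement, so both strands were covered. In windows of 300 bases around the start, 16.3% of 20977 genes with a promoter entry held either pattern, against 59 of 437 members (13.5%). Since only 75.2% of members had an entry, the check of this property over the members was void. Of the 18 members named by rule, 14 had an entry, and Tmem102 was the 1 with a match.

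Libraries held 92311183 to 117723075 counts at 33 °C and 60623568 to 102086073 at 42 °C, transposable elements included. A heat control, the inducible chaperone gene Hspa1a, rose by 2.94 on the log2 scale (edgeR adjusted p = 0.0106). Summed round spermatid markers were 1022 to 1820 CPM at 33 °C and 1248 to 1923 CPM at 42 °C. Other germ cell markers were also present, at 1311 to 3663 and 1635 to 5269 CPM for elongating spermatids and 277 to 393 and 207 to 336 CPM for spermatocytes. Of the somatic lists, Sertoli markers summed to at most 2.51 CPM in any library, and Leydig markers to 2.83 to 16.3 CPM at 33 °C and 2.53 to 6.47 CPM at 42 °C (median log2 difference -0.75, none called). In such bulk libraries, fewer cells of a type and less RNA per cell cannot be told apart. At 33 °C, replicate 3 had the largest share of counts in transposable elements (9.07%), and at 42 °C replicate 2 did (16.2%). Of 581 members, 177 (30.5%) had their highest level of all 10 libraries in replicate 3 at 33 °C and 187 (32.2%) in replicate 2 at 42 °C.

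In edgeR's quasi-likelihood test over 26025 features with Benjamini-Hochberg adjustment, 3 members rose at 42 °C and 0 fell. Called features made up 0.0884% of all tested features in the direction of higher values and 0.00384% in the direction of lower values. Among the tested low coding genes that were not members, 0.228% were called higher. Within them, 3 of 356 on the same strand before the 5′ end (0.843%) and 3 of 423 that overlapped an expressed gene (0.709%) were called, shares above that of the members tested (3 of 529, 0.567%). By distance, 2 of 73 members rose at 0-1 kb, 0 of 163 at 1-5 kb and 1 of 345 at 5-20 kb. At an unadjusted p under 0.05, 89 members were higher and 8 were lower, against 8.56% and 2.94% of all tested features and 8.11% and 2.05% of tested low coding genes that were not members. The filter on low counts passed 529 members, with 69, 149 and 311 in the bins, and 52 members had no test. DESeq2 called 36 members higher and 0 lower, against 0.989% and 0.119% of all features and 1.35% and 0.0684% of the other low coding genes. By distance these were 10, 10 and 16 members. With limma voom, 10 members were called higher, against 0.476% of all features and 0.774% of the other low coding genes.

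Kctd11 encodes a BTB-domain adaptor of a cullin-based ubiquitin ligase, and it lay on chromosome 11 (69878261 to 69881406, minus strand), 161 bases past Acap1, which encodes a GTPase-activating protein for Arf. At 33 °C its counts were 9, 3, 18, 10 and 3 in replicates 1 to 5. At 42 °C they were 71, 143, 70, 118 and 96. Every library at 42 °C was above every library at 33 °C, with the highest count in replicate 2, which was also the library with the smallest total. Its mean went from 0.0899 ± 0.0633 CPM to 1.17 ± 0.589 CPM (SD, n = 5 each), a rise of 3.68 on the log2 scale (SE 0.50, edgeR adjusted p = 0.0155). Acap1 stood at 14.6 ± 2.04 and 17.9 ± 4.02 CPM, a log2 difference of 0.29 (SE 0.17, edgeR adjusted p = 0.487), with overlapping groups. For each 1000 counts of Acap1 there were 2.13 to 11.7 counts of Kctd11 at 33 °C and 48.4 to 91.7 at 42 °C. The level of Kctd11 per kb of exon was 0.951% of that of Acap1 at 33 °C and 10.2% at 42 °C. The call was lost without replicate 1 at 33 °C (adjusted p = 0.0590) and without replicate 4 at 33 °C (adjusted p = 0.0544).

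Adprhl2 encodes a hydrolase that removes ADP-ribose from proteins, and it lay on chromosome 4 (126316047 to 126321703, minus strand), 418 bases past Tekt2, a gene for a tektin of the sperm flagellum. Its counts in replicates 1 to 5 were 22, 35, 35, 36 and 24 at 33 °C. At 42 °C they were 88, 81, 97, 80 and 99. The groups did not overlap, and the libraries at 42 °C lay close together. In CPM the highest of them was replicate 2 (1.20). Mean levels were 0.314 ± 0.0582 and 0.995 ± 0.130 CPM (SD, n = 5 each), a rise of 1.66 on the log2 scale (SE 0.21, edgeR adjusted p = 0.0106). Tekt2 was at 436 ± 98.2 and 437 ± 67.9 CPM, and its adjusted p was 0.994 in edgeR. Adprhl2 gave 0.464 to 1.09 counts per 1000 counts of Tekt2 at 33 °C and 1.71 to 3.51 at 42 °C. Per kb of exon this was 0.0553% of the level of Tekt2 at 33 °C and 0.175% at 42 °C. A mean CPM below that of the neighbour was set by the rule for every member.

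Prdm14 encodes a transcriptional regulator needed for the specification of primordial germ cells, and it lay on chromosome 1 (13113457 to 13127163, minus strand), 11942 bases past Ncoa2, a nuclear receptor coactivator. It had 3, 5, 5, 2 and 2 counts in replicates 1 to 5 at 33 °C. At 42 °C it had 23, 35, 17, 28 and 24. The groups did not overlap, and 4 libraries at 42 °C held more counts than all 5 at 33 °C together, which had 17. Mean levels were 0.0346 ± 0.0132 and 0.296 ± 0.134 CPM (SD, n = 5 each), a rise of 3.02 on the log2 scale (SE 0.41, edgeR adjusted p = 0.0153). Ncoa2 was at 104 ± 32.9 and 119 ± 20.7 CPM, a log2 difference of 0.19 (SE 0.20, edgeR adjusted p = 0.675). For each 1000 counts of Ncoa2 there were 0.149 to 0.694 counts of Prdm14 at 33 °C and 1.53 to 4.11 at 42 °C. No other annotated gene lay in the gap between them. As for Kctd11, the call was lost without replicate 1 at 33 °C (adjusted p = 0.0590) or replicate 4 at 33 °C (adjusted p = 0.0544).

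**Figure D1:**
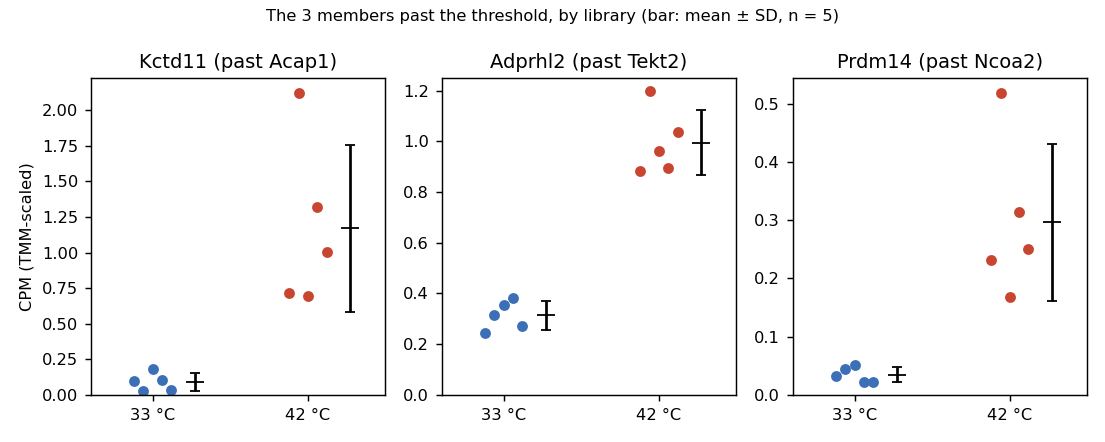
Level in CPM of Kctd11, Adprhl2 and Prdm14, which lie past Acap1, Tekt2 and Ncoa2, in each library at 33 °C and 42 °C. Points are libraries, and for the 3 members every point at 42 °C lies above every point at 33 °C. The levels of the neighbours, which overlapped between the temperatures, are not drawn.

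The 0-1 kb bin held 4 further members among its 6 of smallest p, and none of them passed the adjusted threshold. Avil, the gene of the actin-binding protein advillin, lay 734 bases past Ctdsp2. It ranged from 0.299 to 0.541 CPM at 33 °C (median 0.496) and from 0.872 to 1.38 CPM at 42 °C (median 0.994), a log2 difference of 1.26 (SE 0.23, edgeR adjusted p = 0.0893). Vwa7, whose protein has a von Willebrand factor A domain, lay 257 bases past the valyl-tRNA synthetase gene Vars. It was at 0.256 ± 0.0624 and 0.603 ± 0.134 CPM (SD, n = 5 each; edgeR adjusted p = 0.155). Gzmm, which encodes granzyme M of cytotoxic lymphocytes, lay 622 bases past the ubiquitin-conjugating enzyme gene Cdc34. It was at 0.0745 ± 0.0434 and 0.325 ± 0.130 CPM (edgeR adjusted p = 0.160). Efna4, an ephrin ligand gene, lay 514 bases past the metalloprotease gene Adam15 and was at 0.321 ± 0.0336 and 0.642 ± 0.140 CPM (edgeR adjusted p = 0.183). In all 4 the lowest library at 42 °C was above the highest at 33 °C, although the adjusted p-values missed the threshold.

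In the 1-5 kb bin the 6 members of smallest p had adjusted p-values of 0.0531 to 0.221. Fut4, a fucosyltransferase gene, lay 4194 bases past 1700012B09Rik. It ranged from 0.0113 to 0.142 CPM at 33 °C (median 0.0662) and from 0.325 to 0.800 CPM at 42 °C (median 0.481), a log2 difference of 2.74 (SE 0.46, edgeR adjusted p = 0.0531), while its neighbour differed by -0.17. The transglutaminase gene Tgm1 of keratinocytes, 1490 bases past Rabggta, differed by 1.52 on the log2 scale. Lag3, an inhibitory receptor gene of T cells 1976 bases past Ptms, differed by 1.49. The skeletal muscle actin gene Acta1, 2372 bases past Nup133, differed by 1.74. Otx1, a homeobox gene of the developing brain 2931 bases past Ehbp1, differed by 1.41. The neurokinin B gene Tac2, 3538 bases past Myo1a, differed by 2.10. Groups did not overlap for 5 of these 6, and for Tac2 the highest library at 33 °C (0.101 CPM) was above the lowest at 42 °C (0.0903 CPM).

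In the 5-20 kb bin the 5 members ranked after Prdm14 had adjusted p-values of 0.0564 to 0.160, and in all 5 the groups did not overlap. Tmem102, a transmembrane protein gene 5341 bases past Gm39566, ranged from 0.0533 to 0.172 CPM at 33 °C (median 0.136) and from 0.311 to 1.11 CPM at 42 °C (median 0.586). Its log2 difference was 2.42 (SE 0.41, edgeR adjusted p = 0.0564), and that of Gm39566 was 0.52. The torsin family gene Tor4a, 15321 bases past Stpg3, differed by 2.05, and 2 other genes lay in its gap, 1 of them on the same strand. Anxa8, an annexin gene 9576 bases past Antxrl, differed by 2.92, with 1 other gene, on the same strand, in its gap. The gene of the B cell antigen CD20, Ms4a1, 6997 bases past Ms4a5, differed by 1.86. Plaat3, a phospholipid-metabolising enzyme gene 17785 bases past Atl3, differed by 2.54. For Tmem102, Tor4a, Ms4a1 and Plaat3, the highest library in CPM was replicate 2 at 42 °C. The same held for Kctd11, Adprhl2, Prdm14, Avil, Vwa7, Gzmm, Efna4, Fut4, Acta1 and Tac2. Of the members named by rule, only Tgm1, Lag3, Otx1 and Anxa8 had their highest level in another library.

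All members, tested or not, were also counted by whether every library at 42 °C lay above every library at 33 °C in CPM scaled by TMM. This held for 44 of 581 members (7.57%), against 1.48% of 28174 genes with a total count of at least 50 and 1.6% of 5329 low coding genes that were not members. Some of the 44 reached the total of 50 only with counts at 42 °C, such as Gbx1 (3 at 33 °C, 59 at 42 °C) and Cd79a (10 and 66). Others, such as Adprhl2 (152 at 33 °C), reached it at 33 °C alone. Both backgrounds had the same minimum total, so it could be reached there in the same way. By distance, the pattern held for 10 of 73 members (13.7%) at 0-1 kb, 12 of 163 (7.36%) at 1-5 kb and 22 of 345 (6.38%) at 5-20 kb. The opposite pattern, every library at 42 °C below every library at 33 °C, held for 1 member, Tbkbp1, against 0.685% of the 28174 genes and 0.488% of the low coding genes that were not members. The share was highest in the nearest bin, which held the fewest members, and each bin's share was above both backgrounds. Without replicate 3 at 33 °C and replicate 2 at 42 °C, with 4 libraries left in each group, the counts were 12 (16.4%), 28 (17.2%) and 38 (11.0%), against 3.29% of the 28174 genes and 4.9% of the low coding genes that were not members. The share at 0-1 kb was then no longer above that at 1-5 kb. At an unadjusted edgeR p under 0.05, 15.9%, 19.5% and 15.8% of tested members were higher from near to far, against 8.56% of all tested features. By that measure the nearest bin did not stand out.

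The other positions relative to an expressed gene gave lower shares over 0-20 kb. Low coding genes on the same strand but before the neighbour's 5′ end were separate and higher in 17 of 436 (3.90%). Those on the other strand past the 3′ end were so in 8 of 632 (1.27%), and those on the other strand before the 5′ end in 6 of 344 (1.74%). Low coding genes over 20 kb from an expressed gene were so in 41 of 3435 (1.19%), and those that overlapped one in 13 of 482 (2.70%). Within 1 kb, the genes on the same strand before the 5′ end came nearer to the members, with 5 of 48 (10.4%) against 13.7%. In that class the share was 5.0% at 1-5 kb and 2.02% at 5-20 kb.

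**Figure D2:**
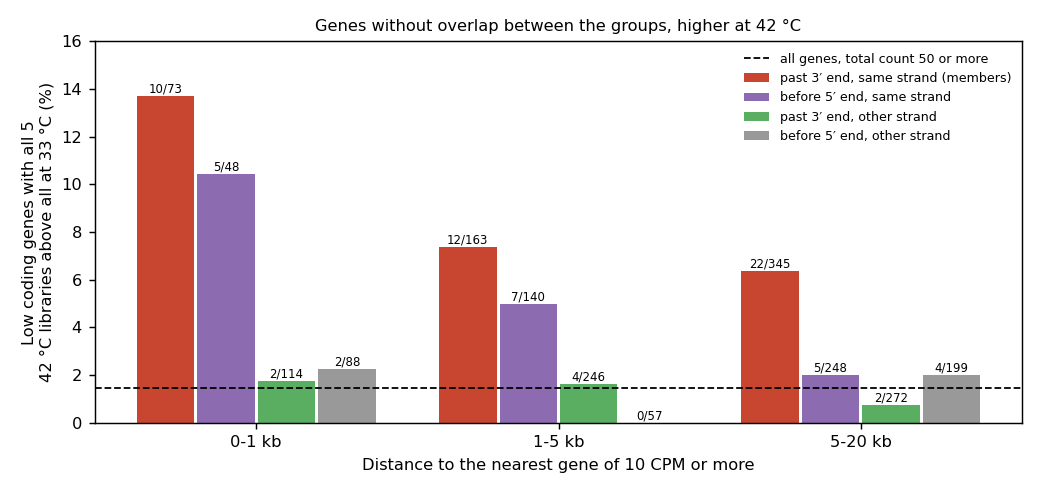
Share in percent of low coding genes in which all 5 libraries at 42 °C lay above all 5 at 33 °C, by distance bin and by strand and side relative to the nearest gene of 10 CPM or more. Members stand at 13.7%, 7.36% and 6.38% from near to far, and the class on the same strand before the 5′ end stands at 10.4%, 5.0% and 2.02%.

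In a fit with no filter on low counts, which gives a value for every member, the median log2 difference was 0.07 at 0-1 kb, 0.20 at 1-5 kb and 0.11 at 5-20 kb. The 90th percentile was 1.26, 1.28 and 1.08 in the same bins, against 0.72 over all genes with a total count of at least 50 and 0.75 over low coding genes that were not members. The medians lay near 0 and the upper tails were longer than those of both backgrounds in every bin. The median was 0.03 over all genes with a total count of at least 50 and 0.08 over low coding genes that were not members. In this fit 376 of 581 members (64.7%) had a log2 difference above 0, against 3140 of 5329 (58.9%) and 15092 of 28174 (53.6%) in the same backgrounds.

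**Figure D3:**
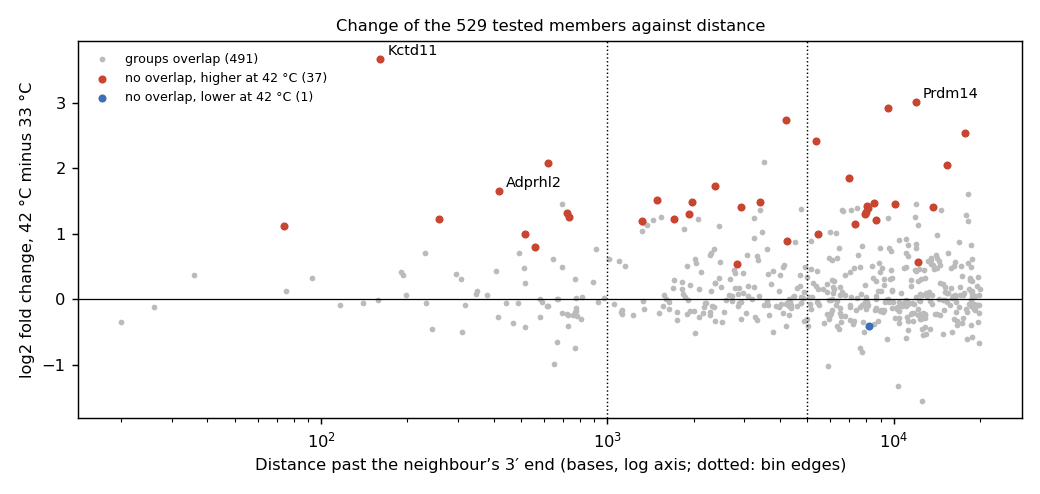
Log2 fold change at 42 °C minus 33 °C of the 529 tested members against distance past the neighbour's 3′ end in bases (log axis), with dotted lines at the bin edges. Points are members, most lie near 0 at every distance, and Kctd11, Adprhl2 and Prdm14 are the 3 that passed the adjusted threshold.

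Summed over a bin, the members' levels overlapped between the temperatures. The sums at 33 °C were 48.0 ± 9.66, 103 ± 20.3 and 223 ± 38.5 CPM from near to far (SD, n = 5). At 42 °C they were 53.2 ± 7.84, 114 ± 19.9 and 238 ± 28.2 CPM. Per 1000 counts of the neighbours, the members gave 6.34 ± 1.69, 5.47 ± 1.53 and 6.70 ± 1.64 counts at 33 °C. The values at 42 °C were 7.50 ± 2.13, 6.76 ± 2.18 and 7.63 ± 1.84. These differences were smaller than the spread between libraries, and in each bin the highest ratio of a group came from replicate 3 at 33 °C or replicate 2 at 42 °C, the libraries richest in transposable element counts. The part of that share in the sums was not tested.

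**Figure D4:**
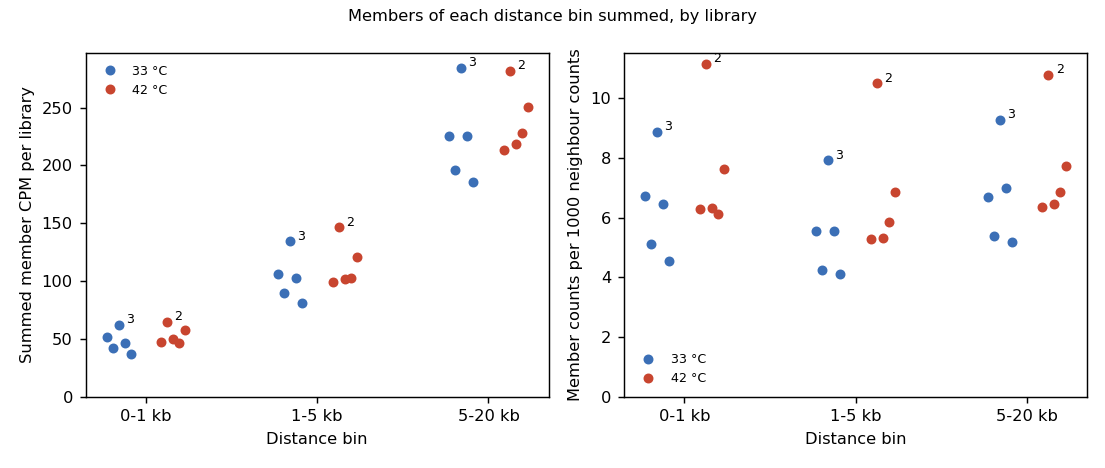
Summed CPM of all members of a bin (left) and member counts per 1000 neighbour counts (right) in each library, by distance bin. Points are libraries, the numbers mark replicate 3 at 33 °C and replicate 2 at 42 °C, and the groups overlap in every bin.

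The 44 members without overlap had neighbours of higher level. The median of these neighbours was 83.1 CPM, against 43.3 CPM for neighbours of the other 537 members. The 44 themselves had a lower median over all libraries, 0.326 CPM against 0.554 CPM for the other 537. At 0-1 kb this did not hold, with 0.554 CPM against 0.542 CPM. By neighbour level, the share without overlap was 4 of 112 (3.57%) at 10 to 20 CPM, 12 of 203 (5.91%) at 20 to 50 CPM, 7 of 105 (6.67%) at 50 to 100 CPM and 21 of 161 (13.0%) at 100 CPM or more. The share of tested members higher at an unadjusted edgeR p under 0.05 did not rise in this way. It was 23.1%, 11.5%, 18.1% and 18.1% in the same order, against 8.56% of all tested features. By their own level, 16 of 166 members below 0.25 CPM (9.64%) and 16 of 114 at 0.25 to 0.5 CPM (14.0%) were without overlap, against 1.11% and 2.51% of other low coding genes. At 0.5 to 1 CPM it was 10 of 147 members (6.80%) against 1.21%. From 1 to 2 CPM the members' share, 2 of 154 (1.30%), was below the 2.02% of other low coding genes. These 44 members were selected on the temperature contrast, so their own levels are a description, and relations to the neighbours carry no test.

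None of the neighbours of any member passed the test in either direction. The median log2 difference of the neighbours was 0.12 for the 44 members without overlap and -0.14 for the other 537, with 27 of 44 and 125 of 537 above 0. Per kb of exon, the 44 stood at a median of 0.261% of the neighbour's level at 33 °C and 1.03% at 42 °C. The other members stood at 1.27% and 1.58%. In 36 of the 44, no other annotated gene lay between the neighbour and the member.

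**Figure D5:**
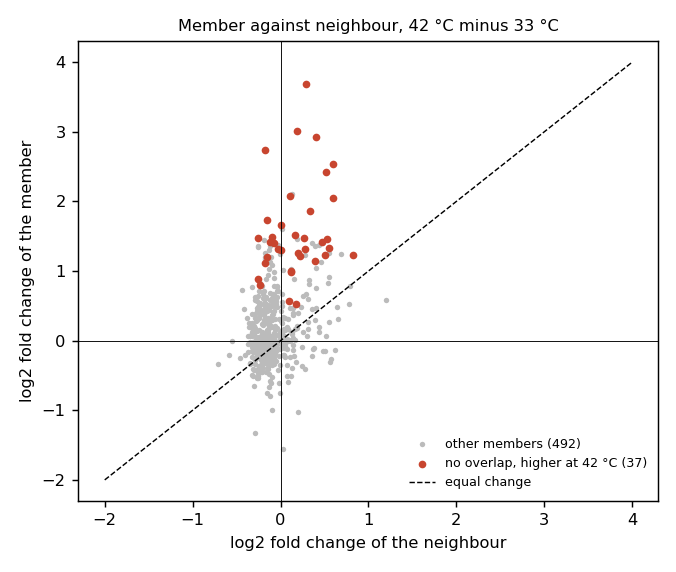
Log2 fold change at 42 °C minus 33 °C of each tested member (vertical axis) against that of its neighbour (horizontal axis), with a dashed line at equal change. Points are member and neighbour pairs, and the called members lie far above the line while their neighbours lie between 0.0036 and 0.29.

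Further members without overlap are given as examples, chosen after their values were seen. Klf1, a transcription factor gene of red cell precursors 13707 bases past Syce2, was at 0.469 ± 0.0983 and 1.25 ± 0.617 CPM (SD, n = 5 each). Umod, the uromodulin gene of the kidney, 7305 bases past Pdilt, was at 0.256 ± 0.0721 and 0.571 ± 0.191 CPM. The involucrin gene Ivl of keratinocytes, 10132 bases past the sperm mitochondrial gene Smcp, was at 0.106 ± 0.0610 and 0.294 ± 0.0609 CPM. None of these 3 passed the adjusted threshold, with edgeR adjusted p-values of 0.204, 0.280 and 0.328. Ftcd, a folate enzyme gene of the liver 5447 bases past Spatc1l, was at 0.722 ± 0.264 and 1.44 ± 0.355 CPM. The nearest of the 44 to its neighbour was Tmem223, 74 bases past the mRNA export factor gene Nxf1, at 0.241 ± 0.0720 and 0.526 ± 0.155 CPM.

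Gzmm, Lag3, Ms4a1, Gzmg and Cd79a are genes of lymphocytes, and the list nearest to them held Adgre1, Cd68, Csf1r, Ptprc and Lyz2, markers of macrophages and myeloid cells apart from Ptprc, which lymphocytes also express. Markers of lymphocytes alone were not listed, so their part in these 5 genes was not tested. The list's summed level, most of it from Adgre1, was 6.93 to 10.7 CPM at 33 °C and 6.31 to 8.87 CPM at 42 °C, with a median log2 difference of -0.25 and none of the 5 called. Ptprc alone was at 0.489 ± 0.175 CPM at 33 °C and 0.544 ± 0.171 CPM at 42 °C (SD, n = 5 each). None of the 5 markers was at 0 in all libraries. For Klf1, the 3 erythroid markers summed to 0.0533 to 0.355 CPM at 33 °C and 0.110 to 0.272 CPM at 42 °C, with 1 of the 3 tested and none called.

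Members lower at 42 °C were few. The 8 at an unadjusted p under 0.05 were Gm48552, Ly6g5b, Ssc5d, Zfp36, Styk1, Ier2, Tbkbp1 and Ptafr, named because they are the whole group. Zfp36 and Ier2 are immediate early response genes. Zfp36, 5893 bases past Med29, was at 1.38 ± 0.630 and 0.676 ± 0.168 CPM, and Ier2, 7625 bases past Nacc1, at 1.06 ± 0.437 and 0.628 ± 0.141 CPM (SD, n = 5 each). Tbkbp1, 8219 bases past Kpnb1, was at 1.11 ± 0.164 and 0.832 ± 0.0633 CPM. The adjusted p-values of these 8 were 0.350 to 0.434 in edgeR, so none was called.

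The proteins that cleave the nascent RNA and release the polymerase were read from a list of 40 genes, of which 39 were found and tested. None rose and none fell by edgeR, against 0.0884% and 0.00384% of all tested features. Their median log2 difference was -0.15, beside -0.03 over all tested genes, and 5 of 39 were above 0, against 47.0% of all tested genes. Against 8.56% and 2.94% of all tested features, 0 were higher and 1 was lower at an unadjusted edgeR p under 0.05. That gene, Ints14 of the Integrator complex, differed by -0.32 (SE 0.15, edgeR adjusted p = 0.435).

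At the edges of the rule, Pdcl at 1.996 CPM was inside and Mccc2 at 2.012 CPM outside. Tph1 with a total count of 50 was inside and B3gnt6 with 49 outside. Vstm4, 19967 bases from its neighbour, was inside, and Disc1 at 20003 bases outside. Klhl33 past Osgep (10.1 CPM) was inside, and Zfp112 past Zfp180 (9.83 CPM) outside.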

How the data were processed

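The deposited table held raw counts per gene and per transposable element in 10 libraries, whole numbers without normalization. Trim Galore, cutadapt, DRAGEN and the builds GRCm38 and mm10 are named in the submitters' processing notes. The strand setting of the counting was not given in the sources used here. Libraries were prepared with a stranded ribosome-depletion protocol, per the labels, and 5 mice per group are stated, so each library was taken as 1 mouse.

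The 55401 genes and 1146 transposable elements were filtered with filterByExpr (minimum count 10, minimum total 15), leaving 24948 genes and 1077 elements. Library sizes were scaled with TMM factors computed over these filtered features. The groups were compared with edgeR 4.0.16 (quasi-likelihood test, R 4.3.3), with Benjamini-Hochberg adjustment over all 26025 features and a threshold of 0.05. Levels are TMM-scaled CPM. DESeq2 1.42.0, limma 3.58.1 voom with quality weights, other scalings, other forms of the member rule, a replicate block and each library left out were tried as alternatives. The scripts were tested on simulated data.

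Distances run from the neighbour's annotated 3′ end to the nearest base of the member, in the coordinates of the table. Gene coordinates were identical to GENCODE M21 (GRCm38) for 573 of 581 members, and exon lengths and transcript ends came from that release. The poly(A) hexamers were searched in the last 50 bases of transcripts, since no genome was used. Named genes were Kctd11, Adprhl2 and Prdm14, every called member, the 6 members of smallest p in each bin and the genes nearest each edge of the rule, and others are named as chosen after their values were seen. Members, bins and lists were chosen with earlier results of these data known. Of 581 members, 34 shared a neighbour with another, 476 had no other gene in the gap and 568 had a coding neighbour. The precision of low members rests on few counts.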

Additional observations from a re-analysis of the deposited data

Results flagged for a closer look

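Gaps within groups were examined for the named members and for the summed levels and neighbour ratios of the members, by bin and over all bins. In 2 of these 52 groups of 5 libraries a library lay far from the others, where chance gives about 1 in 20. Acta1 at 42 °C had its highest library, replicate 2, at 0.800 CPM, with a gap of 0.766 of the group's range to the next library. Tac2 at 33 °C had its highest library, replicate 3, at 0.101 CPM, with a gap of 0.716 of the range. These are the libraries with the largest shares of counts in transposable elements in their groups, 16.2% and 9.07%, and the part of that in these values was not tested.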

How the results depend on the processing

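Where 3 members were called higher by edgeR, DESeq2 called 36 (background 0.989%), limma voom 10 (0.476%), the fit with no filter on low counts 8, and the fits with the ratio of transposable element to gene counts as a covariate or with the size factors of DESeq2 5 each. A neighbour minimum of 5 CPM gave 5, and the nearest expressed gene taken on the same strand and side only gave 6. Both were read from the main fit, which called 0.0884% of all tested features higher. The cause of these differences was not tested. With each library left out in turn, called members numbered 1 to 4 higher and 0 lower. The share of all features called was taken only for the main fit, DESeq2 and limma voom. Counts from the other fits, the replicate block included, therefore do not set members against other genes. The 18 named members had 342 values under alternatives, of which 304 kept direction and side of the threshold, 7 lost the call, 31 gained it and 0 changed sign.

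A minimum mean of 0.5 CPM, which leaves fewer members to test, gave 22, 45 and 94 members with a log2 difference above 0 from near to far (37, 88 and 169 without it), and 6, 9 and 22 members higher at an unadjusted p under 0.05 (11, 29 and 49 without it). With each library left out, members above 0 numbered 33 to 48, 80 to 118 and 163 to 209, and those at an unadjusted p under 0.05 numbered 10 to 16, 24 to 39 and 37 to 61. Median log2 differences of tested members were 0.01, 0.08 and 0.04, with ranges of -0.024 to 0.25, 0.032 to 0.30 and 0.0092 to 0.15. With the covariate, the median over all tested members was -0.02. At an unadjusted p under 0.05, that fit had 78 members on the higher side and 28 on the lower side, against 89 and 8.

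Members whose groups did not overlap numbered 10 to 12, 12 to 26 and 22 to 37 with a library left out, where fewer libraries make this easier to reach by construction. Without both replicate 3 at 33 °C and replicate 2 at 42 °C, an alternative chosen after seeing the data, they numbered 12, 28 and 38. The backgrounds then were 3.29% of genes with a total count of at least 50 and 4.9% of low coding genes that were not members. The rule on the same strand and side only gave 19 at 1-5 kb. Background shares were not taken for single libraries left out or for this rule, so those counts do not set members against other genes. The log2 ratio of member to neighbour counts, 0.24, 0.30 and 0.19, ranged over 0.090 to 0.37, 0.12 to 0.44 and 0.059 to 0.32 with a library left out.

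Same-numbered libraries had correlations of -0.41 to -0.12 in their deviations from the group means, so these deviations showed no pairing by replicate number. Such values cannot exclude that same-numbered libraries were handled together, which was not tested. With a replicate block, 0 members were called higher, and Kctd11, Adprhl2 and Prdm14 had log2 differences of 3.70, 1.67 and 3.00 (edgeR adjusted p = 0.207, 0.268 and 0.207).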
